A study of Mus musculus with 7 samples.

Results

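The genes described here encode proteins that carry long-chain fatty acids across the cell membrane and through the cytosol. The 10 genes were taken by name: 6 fatty acid binding proteins (FABPs; Fabp1, Fabp2, Fabp3, Fabp4, Fabp5 and Fabp7), the membrane receptor Cd36, and 3 fatty acid transport proteins (FATPs; Slc27a1, Slc27a2 and Slc27a5). They are 10 of 21341 protein-coding names in the table, and all 10 were listed with at least 1 FPKM in some tissue. RNA-Seq libraries were strand-specific, made from rRNA-depleted total RNA of liver, kidney, visceral adipose tissue (VAT), subcutaneous adipose tissue (SCAT), interscapular brown adipose tissue (BAT), skeletal muscle and cortex. The donors were wild-type C57BL/6 mice (C57BL/6N in the study's methods) on control diet, 36 weeks old. Each tissue is 1 library, with no replicate, and the sources used here do not give how many animals it holds. The values are FPKM, fragment counts per transcript length, scaled between libraries in a way that the sources used here do not give, so levels are per length and can be set side by side between genes. No test between tissues was possible without replicates, and no neighbours in any order of tissues below can be told apart by a replicate spread.

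FABPs are small cytosolic proteins with a barrel-shaped pocket that holds a fatty acid, and each is named after a tissue in which it is abundant. CD36 binds fatty acids and lipoproteins at the cell surface. FATPs sit in membranes and also act as acyl-CoA synthetases, so that a fatty acid is trapped as its CoA ester after uptake. Liver takes up fatty acids for oxidation and lipoprotein assembly, fat stores and releases them, and brown fat and muscle burn them.

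In GENCODE for GRCm38, the principal transcript of each of the 6 FABP genes has 4 exons and codes for 127 to 135 residues. Slc27a1, Slc27a2 and Slc27a5 code for 646, 620 and 689 residues, and Cd36 for 472. Fabp5 (chr3:10012548-10016607) and Fabp4 (chr3:10204088-10208576) lie 187 kb apart on chromosome 3, with the relatives Pmp2 and Fabp9 between them and Fabp12 just beyond. The other FABP genes are dispersed: Fabp1 at chr6:71199827-71205023, Fabp2 at chr3:122895072-122899506, Fabp3 at chr4:130308595-130315463 and Fabp7 at chr10:57784881-57788450. Cd36 spans chr5:17781690-17888801. The FATP genes are Slc27a1 at chr8:71568882-71587302, Slc27a2 at chr2:126552407-126588243 and Slc27a5 at chr7:12988346-12998192.

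The 250 bases before the RefSeq start site (GRCm38.p6) are shown for Fabp1 and Fabp2, which were high in liver and far lower elsewhere, and for Cd36, which was highest in fat. Of the 10 genes, 7 had an entry, and Fabp4, Fabp5 and Slc27a5 had none. Capitals mark matches on either strand to AGGTCA (a core motif of nuclear receptors), TATAAA (the TATA box) or GTTAAT (part of the HNF1 motif), and none of the marked matches overlap.
Fabp1, chr6:71199629-71199878, plus strand: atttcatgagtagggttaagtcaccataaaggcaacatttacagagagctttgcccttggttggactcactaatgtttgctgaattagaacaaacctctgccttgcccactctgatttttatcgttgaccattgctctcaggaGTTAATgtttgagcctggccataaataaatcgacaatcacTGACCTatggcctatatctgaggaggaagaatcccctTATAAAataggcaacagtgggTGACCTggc
Fabp2, chr3:122894822-122895071, plus strand: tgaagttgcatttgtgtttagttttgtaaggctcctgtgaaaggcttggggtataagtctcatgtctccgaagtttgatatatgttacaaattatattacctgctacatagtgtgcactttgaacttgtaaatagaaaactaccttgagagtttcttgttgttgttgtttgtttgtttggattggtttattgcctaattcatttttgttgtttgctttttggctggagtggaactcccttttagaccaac
Cd36, chr5:17835897-17836146, minus strand: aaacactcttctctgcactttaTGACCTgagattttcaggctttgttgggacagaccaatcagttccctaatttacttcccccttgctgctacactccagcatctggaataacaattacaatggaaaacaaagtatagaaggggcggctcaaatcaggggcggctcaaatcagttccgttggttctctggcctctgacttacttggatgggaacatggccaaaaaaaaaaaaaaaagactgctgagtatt

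The Fabp1 window held all 3 motifs. AGGTCA stood there on the opposite strand at -67 and at -9 from the start, TATAAA at -30 and GTTAAT at -107. The GENCODE gene starts 52 bases before the RefSeq start, so the last 52 bases shown lie within its first exon. The Cd36 window lies wholly inside the longer GENCODE gene, which starts at position 17888801, and overlaps none of its annotated exons. The Fabp2 window held none of the 3 motifs, and neither did those of Fabp3 and Slc27a1. Cd36, Slc27a2 and Fabp7 each had 1 match to AGGTCA and none to the other motifs. Among 32851 promoter windows of this length, 14.0% held AGGTCA, 12.4% TATAAA and 6.43% GTTAAT, and 72 (0.219%) held all 3. A match is a run of letters and not a measured binding site.

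Each library carried defining genes of its labelled tissue. Apoa1 had 2521 FPKM in liver, Umod 930 in kidney, Ucp1 6552 in BAT, Ckm 8592 in skeletal muscle and Snap25 215 in cortex, and Adipoq had 110 to 330 in the 3 adipose tissues. Albumin had no usable liver value, and Dio2, a brown fat gene, was at 0.387 FPKM in BAT. Some libraries also carried genes of other tissues. VAT held the epididymis genes Crisp1, Lcn5 and Adam7 at a summed 2639 FPKM, SCAT the lymphocyte genes Ms4a1, Cd79a and Cd3e at 89.5 and 3 pancreatic enzyme genes at 77.3. Because the tissues are bulk samples, fewer cells of a type and less RNA per cell cannot be told apart.

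Liver held the FABP and FATP genes that were set furthest apart from other tissues. Enrichment was called where a gene reached 1 FPKM in a tissue and its log2(FPKM + 0.1) exceeded each of the other 6 tissues by 2 or more (4-fold). Of the 10 genes, 3 were enriched, Fabp1, Fabp2 and Slc27a5, and each of them in liver. Over 14898 protein-coding genes, 21.3% were enriched in some tissue and 3.38% in liver. The median log2 difference between the highest and the next tissue was 0.78 for the 10 genes and 0.68 for the protein-coding genes.

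Fabp1, the liver fatty acid binding protein, had 8021 FPKM in liver, 50.6 in VAT, 10.2 in kidney, 1.84 in muscle, 1.502 in SCAT, 0.325 in BAT and 0.152 in cortex. It ranked 5th of the 14898 protein-coding genes in liver, and its log2 value there was 7.31 above VAT, the next tissue. Genes with a missing value, albumin among them, are not in that ranking. Of 66 names with a missing value, 52 lacked the one in liver. Fabp2, the intestinal form, had 186 FPKM in liver, 1.61 in VAT, 0.166 in muscle, 0.0940 in BAT and 0.0326 in cortex, and was listed at 0 in kidney and SCAT. These are values of a locus opposite the annotated gene, and the locus on the gene's own strand had 0.0499 FPKM in kidney and 0.0101 in SCAT. At the opposite locus the log2 difference between liver and VAT was 6.77. Of the enterocyte markers, Lct was at 0.00286 FPKM in liver and Vil1 at 1.99, with 42.5 in kidney, while Apoa4, which was enriched in liver, was at 279.

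Slc27a5, a transport protein that also activates bile acids, had 236 FPKM in liver, 1.57 in VAT, 0.211 in muscle, 0.0872 in kidney, 0.0460 in cortex, 0.0181 in BAT and 0.0174 in SCAT. Its log2 difference between liver and VAT was 7.14. Of a short list of 5 bile acid genes, 4 passed 1 FPKM and those 4 were enriched in liver, beside 3.38% of the protein-coding genes. The other one, Cyp8b1, was below 1 FPKM in each tissue, at 0.732 in muscle and 0.544 in liver. The enriched genes were Baat, which conjugates bile acids (51.2 FPKM), Abcb11, the bile salt export pump (67.4), Slc10a1, the bile acid importer (177), and Cyp7a1, the rate-limiting enzyme of bile acid synthesis (10.1).

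VAT was the next tissue for each of the 3 liver-enriched genes, and is set here beside the liver-enriched genes of the other lists. The VAT level was 0.631% of the liver level for Fabp1, 0.863% for Fabp2, 0.665% for Slc27a5 and 0.648% for Slc27a2. The 3 hepatocyte markers with a value in each tissue summed to 10658 FPKM in liver, 378 in kidney, 343 in VAT, 195 in cortex and 11.6 to 68.9 in the other 3 tissues. Of them, Apoa1 stood at 0.701%, Ttr at 0.850% and Cyp2e1 at 6.41%. Apoa4 stood at 0.558%, Lipc at 0.692%, Baat at 0.773%, Abcb11 at 1.26%, Mfsd2a at 2.32%, Cyp7a1 at 2.70%, Ffar4 at 2.92% and Slc10a1 at 10.9%. The 2 highest percents belong to genes with clear levels in further tissues. Slc10a1 had 23.6 FPKM in SCAT, 19.3 in VAT and 10.07 or more in each tissue, and Cyp2e1 had 331 in kidney and 68.2 in SCAT. Without VAT the log2 difference between liver and the next tissue was 9.61 for Fabp1, 9.46 for Fabp2 and 9.57 for Slc27a5. The part of RNA from liver in these VAT values was not tested.

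**Figure D1:**
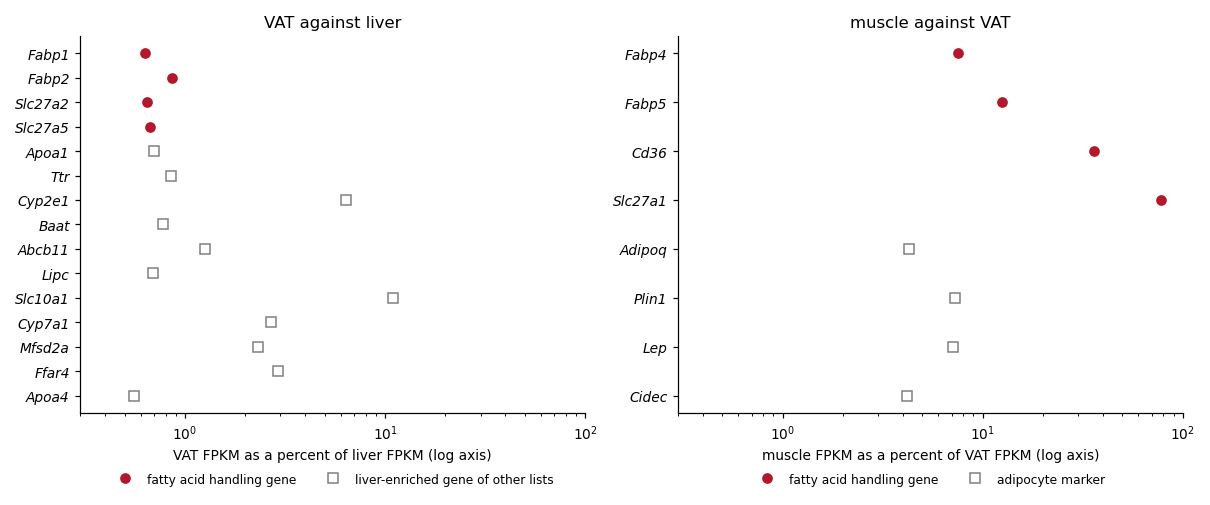
Level in VAT as a percent of liver (left) and in muscle as a percent of VAT (right), each on a log axis. Filled circles are fatty acid handling genes, and open squares are liver-enriched genes of other lists (left) or adipocyte markers (right). The 4 circles on the left lie between 0.631% and 0.863%, and the squares between 0.558% for Apoa4 and 10.9% for Slc10a1, which had 10.07 FPKM or more in each tissue. On the right Cd36 at 36.1% and Slc27a1 at 77.8% lie above the 4 adipocyte markers, which end at 7.23%.

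Slc27a2, the fatty acid transport protein that activates very-long-chain fatty acids, was the gene shared by liver and kidney. It had 941 FPKM in liver, 933 in kidney, 119 in BAT, 6.09 in VAT, 1.10 in cortex, 0.560 in muscle and 0.189 in SCAT. Liver and kidney differed by 0.01 on the log2 scale, and the order of the pair turned under each of 2 other scalings of the libraries (-0.03 with median ratios, -0.10 with upper quartiles). It ranked 12th in kidney and 47th in liver of the protein-coding genes with no missing value, a ranking without albumin. Hnf4a, a transcription factor of hepatocytes and proximal tubule, was also high in those tissues, at 207 FPKM in liver and 159 in kidney, and was listed at 0 in BAT.

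The other genes were also compared between liver and kidney. Of the 10 genes, 3 were at least 4-fold higher in liver, which 8.17% of 11936 protein-coding genes were, and 2 were at least 4-fold higher in kidney, against 10.2%. The log2 difference of liver over kidney was 9.61 for Fabp1, 10.86 for Fabp2 (at the locus listed at 0 in kidney) and 10.30 for Slc27a5. It was -5.14 for Fabp3 and -2.81 for Fabp4, which were higher in kidney. The difference did not reach 2 for Fabp5 (-0.05), Fabp7 (0.48), Cd36 (-0.86) and Slc27a1 (-1.48). Kidney Fabp1, at 0.127% of the liver level, compares with 0.0142% for Apoa1, 1.31% for Ttr and 7.19% for Cyp2e1.

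Fabp4, the adipocyte form, was the most abundant of the 10 genes in the 3 adipose tissues. It had 9367 FPKM in BAT, 5143 in VAT, 2830 in SCAT, 388 in muscle, 64.4 in kidney, 9.09 in liver and 6.16 in cortex. It ranked 1st of the protein-coding genes in VAT and SCAT and 2nd in BAT. Cd36 followed the same order of tissues as deposited (BAT and VAT changed places under both other scalings), at 1929 FPKM in BAT, 1226 in VAT, 602 in SCAT, 443 in muscle, 241 in kidney, 133 in liver and 2.46 in cortex. It ranked 6th in VAT, 9th in BAT and 12th in SCAT. Endothelial cells and macrophages also carry CD36. The 5 endothelial markers summed to 2.78 FPKM in cortex and to 21.6 to 53.3 in the other tissues, highest in BAT, and the 4 macrophage markers to 8.64 in kidney, 10.2 in cortex and 34.0 to 49.5 elsewhere. Their part in the Cd36 levels was not tested.

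The balance between the carrier and the receptor set the adipose tissues apart from muscle, kidney and liver. Fabp4 FPKM was 4.20 times Cd36 FPKM in VAT, 4.70 times in SCAT and 4.86 times in BAT. It was 0.877 times in muscle, 0.268 times in kidney and 0.0685 times in liver, while in cortex, where both were below 10 FPKM, it was 2.50 times. These ratios are taken within a library and do not move with the scaling between libraries. Fabp5, which binds fatty acids in skin and in many other tissues, was far below Fabp4 in fat, by 107 to 153 times, and was the higher of the pair in cortex, by 5.48 times.

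Fabp5 had 61.2 FPKM in BAT, 47.9 in VAT, 33.8 in cortex, 21.9 in SCAT, 5.96 in muscle, 3.35 in kidney and 3.24 in liver. Slc27a1, the transport protein of fat and muscle, had 66.3 in BAT, 40.7 in VAT, 31.7 in muscle, 23.6 in SCAT, 11.2 in kidney, 5.60 in cortex and 3.96 in liver. Both ranged over fewer fold between tissues than the liver-enriched genes did. Both were above 3 FPKM in each of the 7 libraries. Of the 4 keratinocyte and mammary epithelium markers, Krt14 and Krt5 stood at 2.58 and 2.48 FPKM in VAT and at or below 0.236 in the other tissues. Krt18 was at 71.8 in liver and 22.1 in VAT, and Epcam at 14.3 in kidney and 11.9 in VAT.

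Muscle carried adipocyte genes at low levels, and these are given beside its Fabp4 and Cd36 values. The 4 adipocyte markers summed to 1419 FPKM in BAT, 1071 in VAT, 415 in SCAT, 49.9 in muscle, 15.4 in liver, 7.03 in kidney and 1.34 in cortex. The muscle level was 4.28% of the VAT level for Adipoq, 4.20% for Cidec, 7.08% for Lep and 7.23% for Plin1. It was 7.55% for Fabp4, 12.4% for Fabp5, 36.1% for Cd36 and 77.8% for Slc27a1. Against VAT, muscle Fabp4 thus stood just above the 4 adipocyte markers, and Cd36 and Slc27a1 well above them. Against BAT the placing differed: muscle held 4.14% of the BAT level of Fabp4, 23.0% for Cd36 and 47.8% for Slc27a1, against 1.79% for Plin1, 3.30% for Cidec, 5.49% for Adipoq and 181% for Lep, which was low in BAT. In kidney the Fabp4 level was 0.687% of the BAT level, against 0.518% for Adipoq, 0.533% for Cidec, 0.397% for Plin1 and 3.70% for Lep, while Cd36 stood at 12.5%. Of the brown adipocyte markers, Ucp1 stood at 0.162%, Cidea at 0.270% and Ppargc1a at 119%, and Dio2 was listed at 0 in kidney. The endothelial markers summed to 34.9 FPKM in muscle, 38.5 in VAT and 21.6 in kidney, and the macrophage markers to 36.3, 49.5 and 8.64. The part of adipocytes or of these other cells in the muscle and kidney values was not tested.

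**Figure D2:**
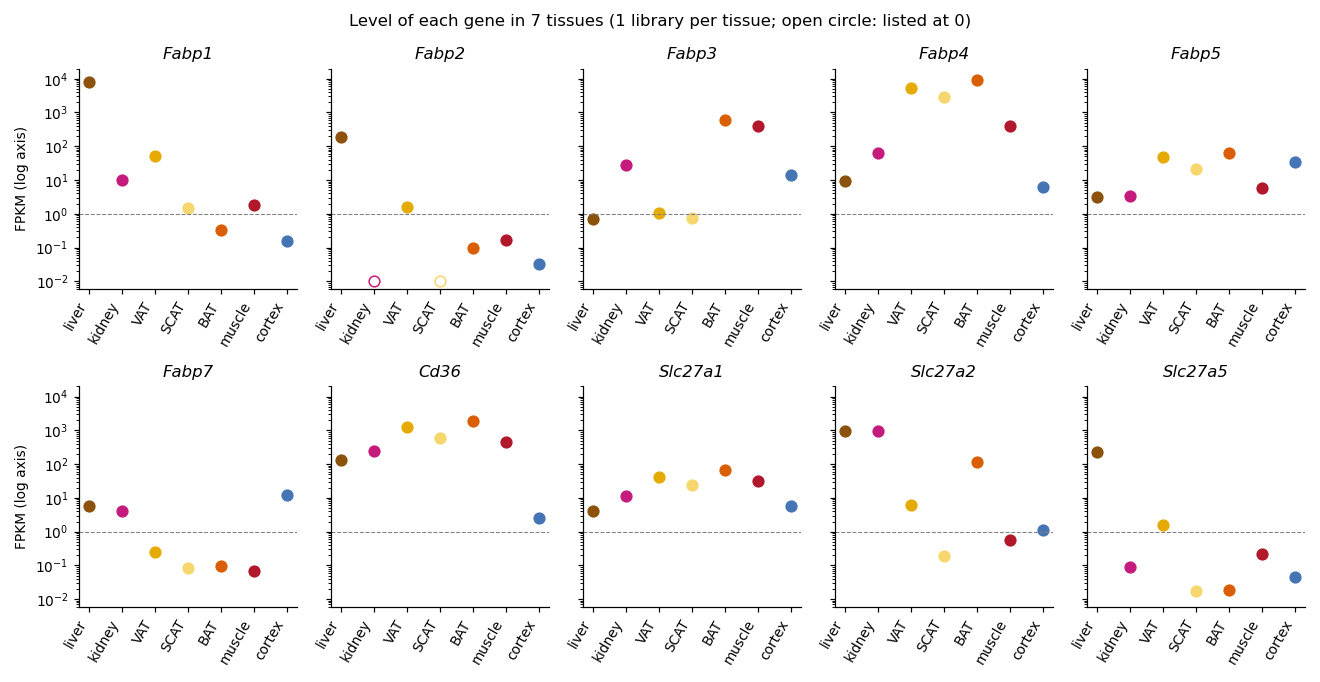
FPKM of each of the 10 genes on a log axis in 7 tissues, 1 point per library, with a dashed line at 1 FPKM and open circles for values listed at 0. Fabp1, Fabp2 and Slc27a5 stand apart in liver, while Fabp4 and Cd36 are high in fat. BAT stands above VAT as deposited for Cd36, Fabp5 and Slc27a1, but the order of this pair turned under median ratio scaling, and that of liver and kidney for Slc27a2 under both scalings tried.

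Of the 10 genes, 2 were at least 4-fold higher in BAT than in both white depots, Fabp3 and Slc27a2. Fabp3, the heart and muscle form, had 583 FPKM in BAT and 403 in muscle, 28.6 in kidney, 14.1 in cortex, 1.04 in VAT, 0.755 in SCAT and 0.717 in liver. Its log2 difference was 9.004 for BAT over VAT and 9.41 for BAT over SCAT. Slc27a2 differed by 4.27 and 8.69 in the same comparisons. These 2 genes were at least 4-fold higher in BAT than in VAT among 9 of the 10 with at least 1 FPKM in either tissue, and the same held for 9.81% of 11945 protein-coding genes. Against SCAT they were 2 of 7, and the share of protein-coding genes was 15.6%.

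In the other direction, Fabp1, Fabp2 and Slc27a5 were at least 4-fold higher in VAT than in BAT, beside 7.14% of the protein-coding genes. These are the same liver-enriched genes whose VAT levels stood near 1% of liver. With Fabp2 and Slc27a5 under 2 FPKM in VAT, only Fabp1 was called with a pseudocount of 1 or a minimum of 5 FPKM. Against SCAT the log2 difference of BAT was -1.91 for Fabp1 as deposited, short of the limit, and -2.62 and -2.65 with median ratio and upper quartile scaling.

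For the genes common to all fat, BAT was less than 2-fold above VAT. As deposited, the log2 difference of BAT over VAT was 0.86 for Fabp4, 0.70 for Slc27a1, 0.65 for Cd36 and 0.35 for Fabp5. Scaling the libraries to a common median ratio moved VAT up by 0.42 and BAT down by 0.29 on the log2 scale, and the differences became 0.15 for Fabp4, -0.01 for Slc27a1, -0.06 for Cd36 and -0.36 for Fabp5. The order of BAT and VAT for the last 3 genes therefore depends on the scaling. VAT stood above SCAT by 0.78 to 1.13 on the log2 scale for Fabp4, Fabp5, Cd36 and Slc27a1, and kept that sign under both scalings. The 4 adipocyte markers were also higher there, at a summed 1071 FPKM in VAT and 415 in SCAT. The part of adipocytes in the difference between the depots was not tested.

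Fabp3 in BAT was set beside muscle genes, since BAT carried some of these. Ckm in BAT was 1.93% of its muscle level and Tnnt3 3.13%, and Fabp3 was 145% of its muscle level. The part of muscle RNA in the BAT value was not tested. The order of BAT and muscle for Fabp3 was kept under both scalings, at log2 differences of 0.53 as deposited, 0.63 and 0.67.

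**Figure D3:**
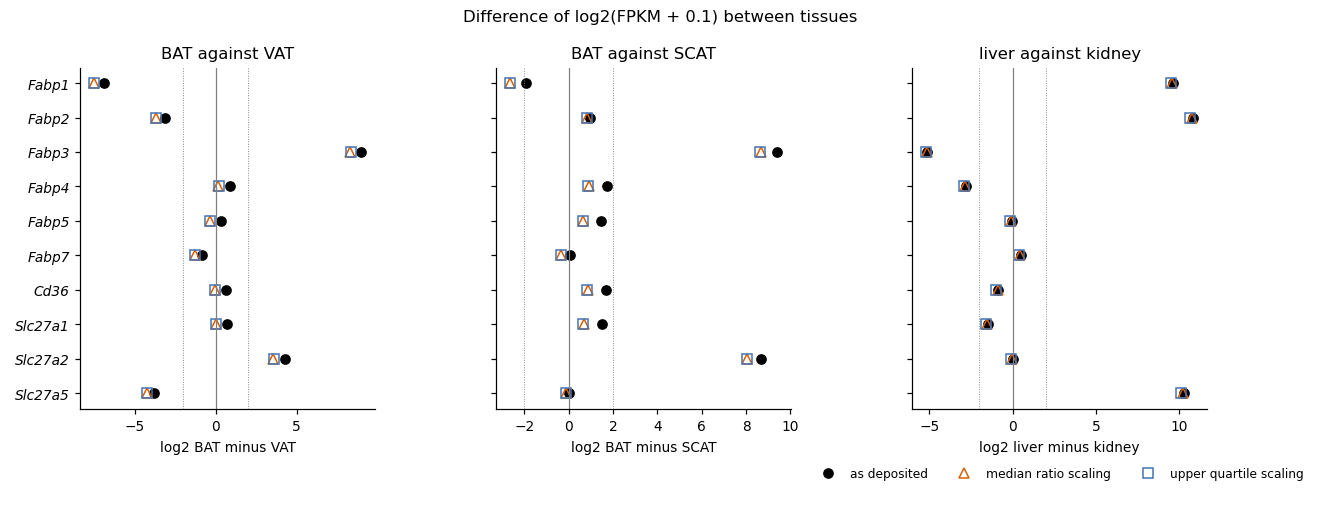
Difference of log2(FPKM + 0.1) for BAT against VAT, BAT against SCAT and liver against kidney, with the deposited values (circles) and after median ratio (triangles) or upper quartile scaling (squares). Dotted lines mark differences of 2 in either direction. Fabp3 and Slc27a2 lie beyond the line toward BAT in both white fat comparisons under each scaling, and in BAT against VAT Cd36, Fabp5 and, with median ratios, Slc27a1 cross 0.

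Cortex had little of most of these genes. Fabp7, the brain form found in astrocytes and their precursors, was highest there, at 12.5 FPKM, with 5.91 in liver, 4.22 in kidney, 0.248 in VAT, 0.0951 in BAT, 0.0854 in SCAT and 0.0662 in muscle. Its log2 difference between cortex and liver was 1.07, below the limit of 2 for enrichment. The 4 astrocyte markers did not share 1 pattern. Gfap had 91.5 FPKM in cortex and below 0.5 in the other tissues. Slc1a3 (32.0) and Aqp4 (31.4) were also highest in cortex, with Aqp4 at 20.4 in kidney, 15.1 in muscle and 7.47 in liver, and Aldh1l1 was highest in liver (144) and kidney (89.6), with 8.04 in cortex. Fabp5 at 33.8 and Fabp3 at 14.1 were above Fabp7 in cortex.

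The make-up of the FABP transcripts differed by tissue. Of the summed FPKM of the 6 FABP genes, Fabp1 was 97.5% in liver, and Fabp4 was 98.1% in VAT, 99.2% in SCAT and 93.6% in BAT, where Fabp3 was 5.83%. Muscle held Fabp3 and Fabp4 at 50.4% and 48.6%. Kidney had 58.1% Fabp4, 25.8% Fabp3 and 9.20% Fabp1, and cortex had 50.6% Fabp5, 21.1% Fabp3, 18.8% Fabp7 and 9.24% Fabp4. The summed FABP level ran from 66.7 FPKM in cortex and 111 in kidney to 799 in muscle, 2854 in SCAT, 5244 in VAT, 8227 in liver and 10012 in BAT. A single gene thus made up over 90% of the sum in liver and the 3 adipose tissues but not in kidney, muscle or cortex.

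Of the summed FPKM of the 3 FATP genes, Slc27a2 was 98.8% in kidney, 79.7% in liver and 64.2% in BAT. Slc27a1 was 99.1% in SCAT, 97.6% in muscle, 84.1% in VAT, 83.0% in cortex and 35.8% in BAT. In cortex the share was 40.5% with Slc27a3, Slc27a4 and Slc27a6 in the sum, where Slc27a4 was above Slc27a1. Slc27a5 was 20.0% in liver. The sum was 1180 FPKM in liver, 945 in kidney, 185 in BAT, 48.3 in VAT, 32.4 in muscle, 23.8 in SCAT and 6.74 in cortex. Of the 7 libraries, BAT had the most even division between Slc27a1 and Slc27a2.

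**Figure D4:**
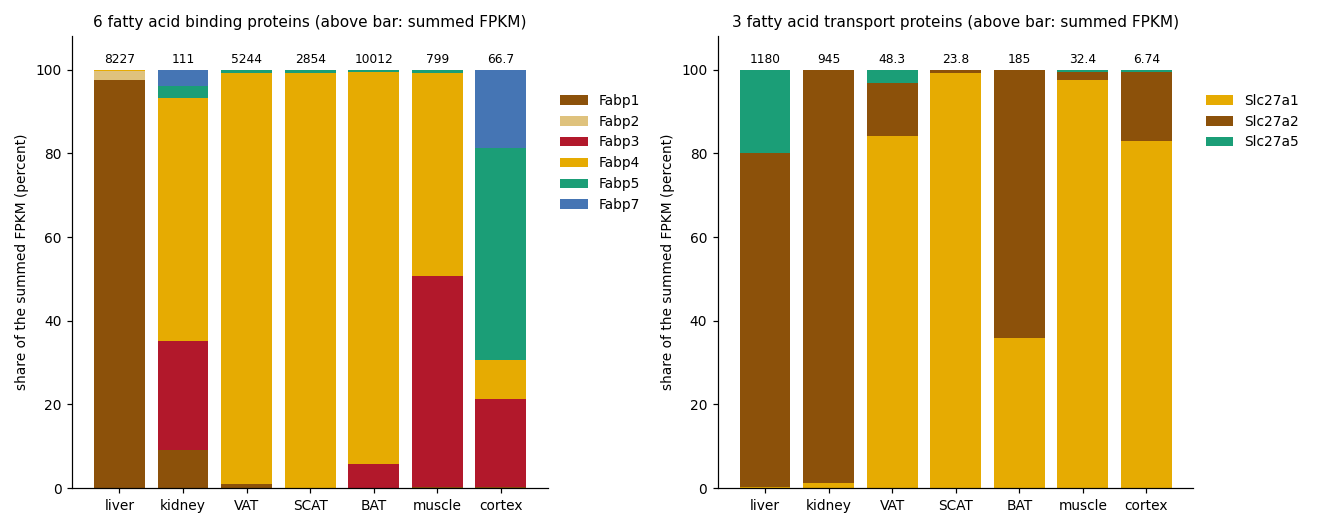
Share of each gene in the summed FPKM of the 6 FABP genes (left) and of the 3 FATP genes (right), in percent, 1 bar per tissue, with the sum in FPKM above each bar. Fabp1 fills 97.5% of the liver bar, Fabp4 93.6% to 99.2% of the adipose bars, and Slc27a2 98.8% of the kidney bar.

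Of the 7 relatives left out of the list, 3 reached 1 FPKM in some tissue: Fabp9, Slc27a4 and Pmp2. Fabp9 was listed at 332 FPKM in BAT, 187 in VAT and 110 in SCAT, at a locus opposite Fabp4 that is described with the strands. Slc27a4, a widely expressed transport protein, had 6.52 FPKM in cortex, 6.41 in liver, 5.44 in kidney, 4.38 in BAT, 3.54 in muscle, 2.75 in VAT and 1.54 in SCAT. Slc27a3, Slc27a6 and Fabp12 were below 1 FPKM in the 7 tissues. Fabp6, the ileal form, was listed at 0 in each of them. Pmp2, a myelin protein of the same family, reached 2.52 FPKM in VAT at a locus it shares with Fabp9. The retinoid-binding relative Rbp7 had 79.7 FPKM in VAT, 31.7 in BAT and 23.7 in SCAT, and was not enriched in a single tissue.

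A further locus on the other strand was listed for 7 of the 10 genes, and is given as a percent of the annotated strand in tissues with at least 1 FPKM there. The opposite-strand level was 4.78% to 5.55% of the annotated strand for Cd36 over 7 tissues and 1.69% to 3.18% for Fabp1 over 5 tissues. It was 11.1% to 16.5% for Fabp5 over 7 tissues, 17.8% to 22.0% for Fabp7 over 3 and 21.5% to 37.5% for Slc27a1 over 7. The 2 strands were nearly level for Slc27a5 (92.2% in liver, 96.0% in VAT) and Fabp2 (113% and 109%), which reached 1 FPKM in those 2 tissues alone. For Fabp2 the higher locus, whose values are given above, lies opposite the annotated gene, and the locus on its own strand had 165 FPKM in liver and 1.48 in VAT, with a log2 difference of 6.71. The locus listed as Fabp9 with the highest level lies opposite Fabp4 within the same bounds and held 3.54% to 4.88% of the Fabp4 level in each of the 7 tissues.

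**Figure D5:**
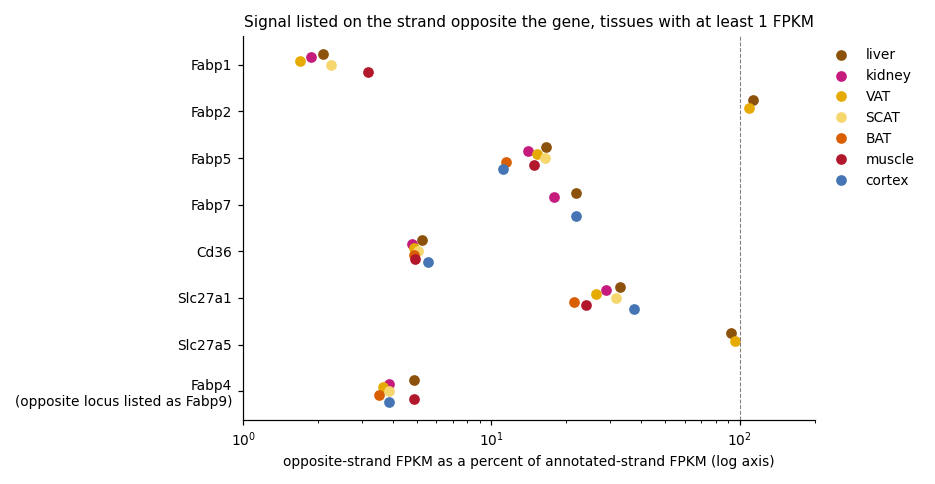
Level at the locus opposite a gene as a percent of the level on its annotated strand (log axis), 1 point per tissue with at least 1 FPKM on the annotated strand, and for Fabp4 the opposite locus listed as Fabp9 in all 7 tissues. Points lie lowest for Fabp1 (1.69% to 3.18%), spread from 21.5% to 37.5% for Slc27a1, and lie near the dashed line at 100% for Slc27a5 and Fabp2.

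Further genes were taken from 7 lists: relatives of the FABPs and FATPs, retinoid-binding relatives, lipoprotein lipolysis, acyl-CoA synthetases, membrane proteins and carriers, regulators, and bile acid genes. Of these 56 genes, 46 passed 1 FPKM with a value in each tissue, and 8 of them (17.4%, near the 21.3% of the protein-coding genes) were enriched, 7 in liver and 1 in kidney. In liver these were Lipc, hepatic lipase (110 FPKM), Mfsd2a, a carrier of lysophospholipids (42.5), Ffar4, a fatty acid receptor (106), and the 4 bile acid genes. The Ffar4 locus shares its bounds with Rbp4 on the other strand, which had 618 FPKM in liver. In kidney it was Acsm2, a medium-chain acyl-CoA synthetase, with 1490 FPKM and a log2 difference of 11.28 over liver. That locus lies opposite the annotated gene, and the locus on the gene's own strand had 1015 FPKM in kidney.

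By list, 1 of 7 lipoprotein lipolysis genes, 1 of 9 acyl-CoA synthetases that passed, 2 of 11 membrane and carrier genes, and 4 of 4 bile acid genes were enriched. None of 8 regulators, 4 retinoid-binding relatives or 3 family relatives that passed were. Lpl, the lipase that frees fatty acids from lipoproteins, had 646 FPKM in BAT, 301 in VAT, 107 in muscle, 102.3 in SCAT, 51.1 in kidney, 5.92 in liver and 3.02 in cortex. Gpihbp1, which holds that lipase on capillaries, had 66.1 in BAT, 63.8 in VAT and 0.0361 in cortex. Dbi, the acyl-CoA binding protein, was at 70.9 FPKM or more in each tissue and highest in BAT, at 1074.

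Among the regulators, Pparg, the receptor that drives fat cell genes, had 158 FPKM in BAT, 49.8 in VAT, 41.4 in SCAT and 9.69 in liver. Ppara, the receptor for fatty acid oxidation genes, had 73.9 in liver, 45.6 in BAT and 14.7 in kidney. Acsl1 had a single locus, which failed in the authors' processing, and was left out.

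Genes with the pattern most like each of the 10 were ranked by Pearson's r of log2(FPKM + 0.1) over the 7 tissues among 6848 protein-coding genes. The points are 7 single libraries, so r is a description. The closest to Fabp1 was Gc, the vitamin D binding protein (r = 0.987), and to Slc27a5 Cyp2d10, Cyp2c67 and Rdh7 (r = 0.999 for each). Fabp2 was closest to Mbl2, Hpx and Abcb11 (r = 0.996 for each). Behind the opposite-strand Fabp9 locus (r = 0.999), Fabp4 was closest to Adig, a gene of adipocytes (r = 0.988). Cd36 was closest to Cd300lg (r = 0.996), Slc27a2 to Pm20d1 (r = 0.992), Fabp3 to Gmpr (r = 0.990), Slc27a1 to Ano10 (r = 0.993) and Fabp7 to Ngef (r = 0.995). Arxes1 (r = 0.979) and Arxes2 (r = 0.975) were among the 3 closest to Fabp5.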

How the data were processed

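RNA-Seq of 7 mouse tissues, 1 library each, was analysed from the authors' gene-level cuffdiff table. According to the methods and the submitters' processing notes, adapters were removed with flexbar, rRNA reads with Bowtie2 2.2.9, reads were aligned to GRCm38 with STAR 2.6.0c, and transcripts were assembled, merged and compared with Cufflinks 2.2.1. The deposited values are FPKM, and the scaling between libraries is not given in the sources used here. The authors' fold changes, test statistics, p-values and q-values were not used. The table has no fragment counts, so depth and its precision are unknown and no interval was computed.

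The table lists 94339 loci in 21 comparisons, with the same FPKM for a tissue in each. Loci with the status FAIL (151) were dropped, and zeros with the status LOWDATA were treated as missing, which left 36 protein-coding genes out of the calls. For a name with several loci the one with the highest FPKM was used. Strand was read from the order of loci, and 75.3% of locus and name pairs lay on the annotated strand (GENCODE M21). Gene coordinates count from 1 and come from that annotation, and promoters from RefSeq.

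FPKM were compared as log2(FPKM + 0.1), which understates differences of low genes. A gene was called enriched at 1 FPKM or more and a difference of 2 or more over each other tissue. Pairs of tissues were called at the same difference among genes with 1 FPKM in either. Ranks were taken over protein-coding genes with 1 FPKM in any tissue and no missing value. The rule was tested on simulated data. Named are the 10 genes, 7 relatives, list genes called enriched, 7 fixed genes and tissue markers. Also named are the 3 genes with the most similar pattern per gene among those with 10 FPKM or more (not all are printed). Rbp7 and Rbp4 were added after their values were seen, and Cyp8b1 is named as the bile acid gene that did not pass. Genes and lists were chosen with earlier results of these data known. Alternatives covered pseudocount, scaling, locus choice, strand, status, minimum, fold, the white fat libraries and the family sum. Cavin1 was found under its older symbol. Acta1 and Si were not analysed here, and 1 gene of the lists and 1 of similar pattern are not reported here. Python 3.11.15, pandas 2.3.3, NumPy 2.4.6 and matplotlib 3.10.9 were used.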

Additional observations from a re-analysis of the deposited data

Results flagged for a closer look

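The strand opposite the locus used for a gene held signal of at least 1 FPKM at 7 of the 10 genes. These loci did not enter the main calls above and were set beside the loci used in the description of the strands. The highest values were 168.7 FPKM in liver for Fabp1, 164.5 in liver for Fabp2, 217.5 in liver for Slc27a5, 93.7 in BAT for Cd36, 14.2 in BAT for Slc27a1, 7.32 in VAT for Fabp5 and 2.75 in cortex for Fabp7. The locus listed as Fabp9, which lies opposite Fabp4, reached 331.6 FPKM in BAT. For Fabp2 the further locus is the one on the annotated strand. No library without the gene was at hand as a control, and the source of this signal was not tested.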

How the results depend on the processing

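No paired analysis was possible because each tissue has 1 library. With no fragment counts, the depth behind low values is unknown. The count of 3 enriched genes was the same under 12 of 13 alternatives and 4 at 2-fold, where Fabp7 in cortex was added. With median ratio scaling, BAT minus the highest other tissue became -0.361 for Fabp5, -0.0603 for Cd36 and -0.00927 for Slc27a1, and liver minus the highest other tissue -0.0281 for Slc27a2. With upper quartile scaling these values were -0.342 for Fabp5, -0.0409 for Cd36 and -0.0999 for Slc27a2. The highest tissue was the same for 6 and 7 of the 10 genes under these scalings. Genes higher in VAT than in BAT were 1 instead of 3 with a pseudocount of 1 or a minimum of 5 FPKM. Genes higher in BAT than in SCAT were 6 instead of 2 at 2-fold, and those higher in kidney than in liver 1 instead of 2 at 8-fold. At 2-fold, 24 instead of 8 of the other pathway genes were enriched. With the whole FATP family in the sum, Slc27a1 made up 40.5% in cortex. Alternatives for pairs of tissues were chosen after seeing the data. Of the 30 most similar genes, 13 were also among the nearest by Spearman's rank correlation.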
